A study of Caenorhabditis elegans with 12 samples.

Results

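RNA sequencing compared late-stage embryos of a lin-61 single mutant with those of an hpl-2 single mutant of the nematode Caenorhabditis elegans, with 2 libraries of each. The comparison covers the 13117 of 46904 genes in the deposited table that had a normalised read count of at least 10 in at least 2 of these 4 libraries. Of these genes, 10471 are annotated as protein coding, 2361 as non-coding RNA and 266 as pseudogenes, and 19 had no annotation match. The level was reached in both lin-61 libraries and in no hpl-2 library by 198 genes, and in both hpl-2 libraries and in no lin-61 library by 420.

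HPL-2 and LIN-61 are both readers of histone H3 methylated at lysine 9 (H3K9), the mark of heterochromatin. HPL-2, an HP1 family protein, binds the mark through its chromodomain, whereas LIN-61 binds it through MBT repeats. Both genes belong to the synMuv B class, whose members repress germline genes in somatic cells and act redundantly with synMuv A genes in vulval development. In worms H3K9 methylation lies mainly on the arms of the autosomes and over repeats and silent genes. The comparison asks where messenger RNA levels differ between embryos mutant for one reader and embryos mutant for the other.

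The labels give the genotypes as hpl2 and lin61, with no allele, strain name or culture temperature, so a difference of a strain other than its named mutation cannot be told apart from the mutation. The other genotypes, each with 2 libraries of the same stage, were N2 (the wild type), hpl-2I158A (a point mutation in hpl-2), the lin-61 hpl-2 double mutant and met-2 set-25 set-32 (mutated in H3K9 methyltransferase genes). Embryos came from several plates per sample, and nothing in the labels says that replicates were separate cultures. The p-values thus measure the spread between replicate libraries, pooled over all genotypes but met-2 set-25 set-32, and this spread may be technical. Its median SD on the log2 scale was 0.14 in hpl-2, 0.15 in lin-61, 0.16 in hpl-2 I158A, 0.21 in the double mutant and 0.27 in N2. In whole embryos, fewer cells of a type and less RNA per cell cannot be told apart.

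Reads in genes numbered 2129879 to 2355737 per library, and 1 read was worth 0.886 to 1.02 normalised counts. The correlation of log2 values across genes was 0.971 between the lin-61 replicates, 0.971 between the hpl-2 replicates and 0.940 to 0.948 between the genotypes. hpl-2 replicate 1 stood apart in its share of mitochondrial reads (0.446%, against 0.100% to 0.109% in the other 3 libraries) and of ribosomal RNA reads (2.37%, against 0.285% to 0.469%). N2 and the double mutant also had high shares of both (0.314% to 0.344% and 1.36% to 1.81%), and the part of this in any result was not tested. Markers of differentiated muscle, pharynx, intestine, epidermis and neurons were present in every library: the 7 markers (myo-3, unc-54, myo-2, elt-2, dpy-7, rab-3 and unc-119) summed to 4589 and 4432 normalised counts in hpl-2 and 3888 and 3673 in lin-61. Vitellogenins of the adult intestine summed to 21.4 to 40.9 over 6 genes, and major sperm proteins to 30.1 to 44.9 over 31 genes, 13 of which were at 0 in all 4 libraries. No source used here states how strand was treated in counting. Among 1396 pairs of a non-coding gene lying opposite a coding gene, the non-coding gene had more reads per base in 92.1% to 93.3%. A named gene and a gene opposite it thus cannot be told apart, and an overlap above 10% is stated beside it. Non-coding genes other than ribosomal RNA held 14.5% to 15.1% of reads in the 4 libraries. The share was 17.5% for met-2 set-25 set-32 replicate 1 and 3.20% for its replicate 2, which had 10243076 reads in genes. Whether reads were counted on the strand opposite the transcript was not tested. Counts of genes without an overlap are therefore not known to be sense reads either.

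Each mutated gene was low in its own mutant. hpl-2 (WBGene00001996, III, 10752195 to 10755530) was at 36.2 and 34.5 normalised counts in the hpl-2 libraries and at 234 and 238 in the lin-61 libraries, beside 304 and 242 in N2 and 30.9 and 49.8 in the double mutant. Both hpl-2 libraries lay below every lin-61 and N2 library, and the transcript was 6.52-fold higher in lin-61 (log2 difference 2.70, SE 0.22, limma adjusted p = 3.45e-05). lin-61 (WBGene00003041, I, 7248827 to 7251282) was at 7.15 and 5.45 in the lin-61 libraries and at 71.4 and 54.02 in the hpl-2 libraries, beside 91.9 and 41.4 in N2 and 13.6 and 12.45 in the double mutant. The log2 difference was -3.12 (SE 0.38, limma adjusted p = 0.00147), and without hpl-2 replicate 1 the call was lost (limma adjusted p = 0.0658). Neither gene has another gene opposite it, and their values follow the labels.

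Genes called between the single mutants were more often higher in lin-61, whereas 51.3% of all genes lay above 0. Of 13117 genes, 177 (1.35%) were called by limma at an adjusted p under 0.05, with 149 (1.14%) higher and 28 (0.213%) lower in lin-61 than in hpl-2. Rescaled to the total over coding genes, which moved the median difference of all genes by -0.09, 43 were higher and 27 lower. The genes higher in lin-61 were abundant and differed modestly, with a median level of 308 normalised counts and a median fold of 1.69. Those lower in lin-61 were scarcer and differed more, with a median level of 73.1 and a median fold of 2.64. Scarce genes needed a larger difference to be called, since the median SE was 0.55 at means under 20 and 0.11 at means of at least 1000. A log2 difference of at least 1 in size was reached by 63 called genes (0.48%), 46 higher and 17 lower. Over all 13117 genes the median log2 difference was 0.01. All 177 genes had values that did not overlap between the genotypes, which was also true of 30.4% of all genes with lin-61 higher and 27.3% with lin-61 lower.

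The count of calls changed with the libraries in the fit. It was 9 without hpl-2 replicate 1, 21 without hpl-2 replicate 2 (11 higher, 10 lower), 10 without either lin-61 replicate, 6 with met-2 set-25 set-32 also in the fit and 2202 with only the 4 libraries. All 177 genes kept their direction in each of these fits. This was fixed in advance, since their values did not overlap between the genotypes, and says nothing on stability. Of 52 genes named by rule, C02E7.6, C02E7.7, E01G4.5, F23H12.5, hpl-2, lido-8 and lido-9 were called with each of the 4 libraries left out.

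**Figure D1:**
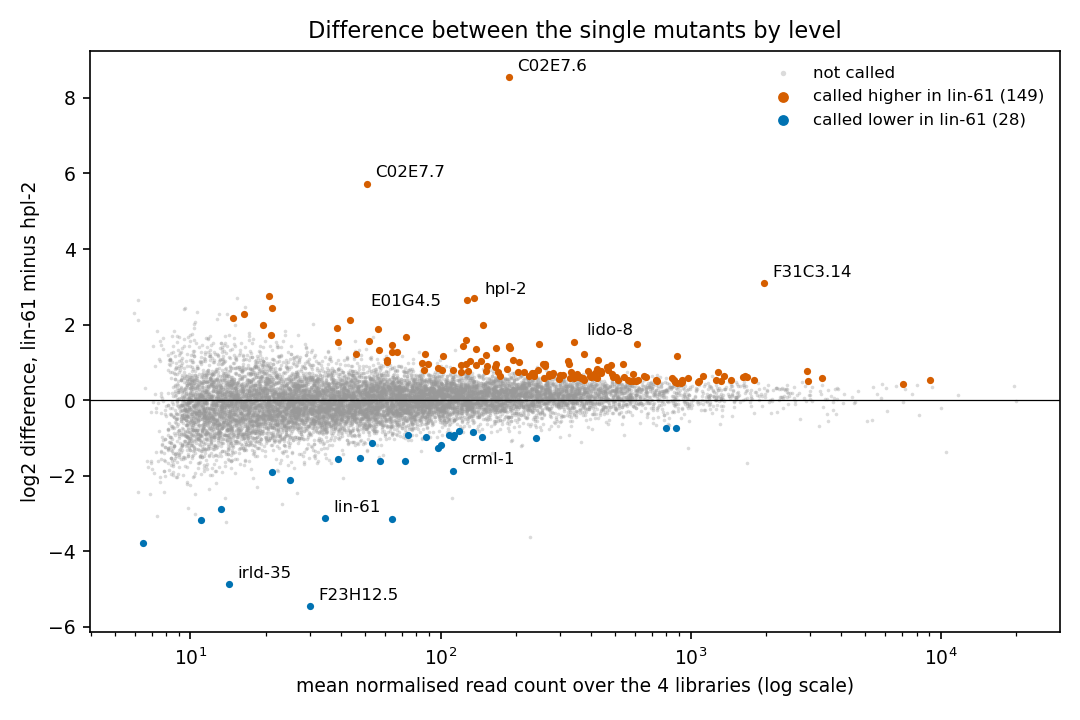
Log2 difference of lin-61 minus hpl-2 (vertical) against the mean normalised read count of the 4 libraries on a log scale (horizontal), with 1 point per gene for 13117 genes. The 149 genes called higher in lin-61 (orange) lie mostly at high levels close to the axis, and the 28 called lower (blue) mostly at low levels; C02E7.6 and C02E7.7 lie highest.

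The largest difference was at a pair of neighbouring genes on chromosome V, C02E7.6 and C02E7.7, which had almost no reads in hpl-2 and many in lin-61. C02E7.6 (WBGene00015339, V, 4919207 to 4919591) had no read in either hpl-2 library and stood at 423 and 330 normalised counts in lin-61, with 93.5 and 189 in N2 and 154 and 140 in the double mutant. From 777 reads against none, it was at least 271-fold higher in lin-61, with a floor of 3 reads over the 2 hpl-2 libraries (limma adjusted p = 7.03e-10). C02E7.7 (WBGene00015340, V, 4918136 to 4918574) was at 0 and 2.66 in hpl-2 and at 102 and 99.1 in lin-61. From 209 against 3 reads its ratio was 73.0, with a 95% counting interval of 24.7 to 357 (limma adjusted p = 9.57e-05). The double mutant, in which hpl-2 transcript was also low, had levels between those of both single mutants for C02E7.6 and overlapped lin-61 for C02E7.7 (106 and 49.8). Genes around the pair differed less. H23N18.5, the next gene counted to the left, had a log2 difference of 1.70 (limma adjusted p = 0.0994), and the glucuronosyltransferase genes ugt-9, ugt-12 and ugt-13 had 1.66, 1.04 and 0.36 without a call. tam-1, a synMuv B gene lying to the right (V, 4958603 to 4963102) beyond str-208 (1.34, not called), was called with a log2 difference of 0.52 and is described with its class.

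**Figure D2:**
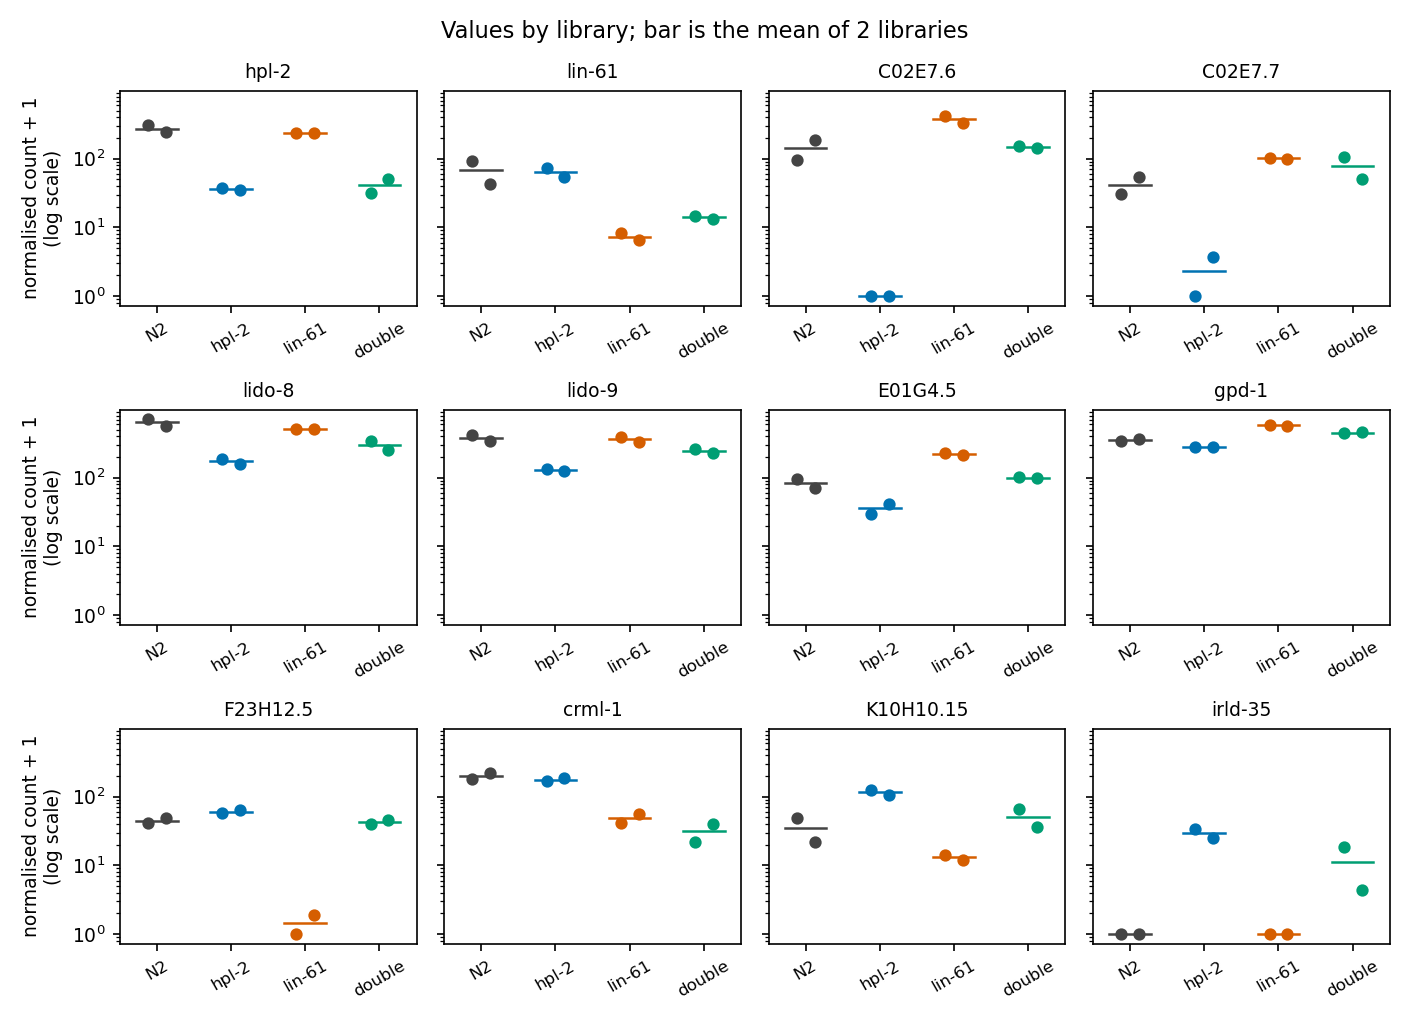
Normalised read count plus 1 on a log scale for 12 genes in the N2, hpl-2, lin-61 and double mutant libraries, with 1 point per library and a bar at the mean of 2 libraries. C02E7.6 and C02E7.7 are near the bottom in hpl-2 alone, F23H12.5 in lin-61 alone, and crml-1 is low in lin-61 and in the double mutant.

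A block of lido genes on the left arm of chromosome II was lower in hpl-2 than in lin-61. lido-8 (WBGene00019511, II, 2997021 to 3000653) was at 189 and 159 in hpl-2, 509 and 511 in lin-61, and 709 and 575 in N2. The hpl-2 values lie below all others, and the log2 difference was 1.55 (SE 0.16, limma adjusted p = 0.00033). lido-9 (WBGene00016576, II, 3000768 to 3002411) was at 132 and 126 in hpl-2, 397 and 334 in lin-61 and 413 and 336 in N2, with a log2 difference of 1.49 (limma adjusted p = 0.000265). lido-10 (2.96-fold) and lido-11 (2.30-fold) were also higher in lin-61, with limma adjusted p = 0.0299 and 0.0285. For these, lin-61 (84.8 and 71.8, 243 and 183) lay above N2 as well (70.1 and 35.3, 176 and 105). Neither was called against N2 (limma adjusted p = 0.234 and 0.121). Together with the non-coding gene WBGene00195039, which lies wholly opposite lido-8, they form a run of 5 neighbouring called genes (II, 2997021 to 3005593), the only run of at least 4 in either direction. The genes on each side, lido-7 (0.44) and lido-12 (0.32), were not called. Of 13 lido genes measured, 4 were higher in lin-61 and 0 lower, with a median log2 difference of 0.44, beside 1.14% called higher and a median of 0.01 over all genes. With any 1 of the 4 libraries left out 2 were called. lido-17 (1.27, limma adjusted p = 0.0992) and lido-18 (-0.11) were not called. In the double mutant lido-8 was at 343 and 255 and lido-9 at 261 and 227, between the values of both single mutants.

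The other coding genes of largest difference were of low to moderate level. E01G4.5 (WBGene00008447, II, 13472401 to 13473995) was at 28.5 and 40.7 in hpl-2, 226 and 214 in lin-61, 93.5 and 70.7 in N2 and 100.1 and 98.4 in the double mutant. The genotypes separate into 3 levels, and lin-61 was 6.28-fold above hpl-2 (log2 difference 2.65, SE 0.24, limma adjusted p = 9.3e-05). Against N2 it was higher in lin-61 (limma adjusted p = 0.00318) and lower in hpl-2 (limma adjusted p = 0.00391). F39F10.3 was at 5.71 and 6.20 in hpl-2 and 37.8 and 35.4 in lin-61, above 15.6 and 8.53 in N2 (log2 difference 2.44, limma adjusted p = 0.0244). K02A2.1 was at 15.2 and 15.9 in hpl-2 and 63.3 and 59.1 in lin-61, with N2 at 71.7 and 37.8 (1.91, limma adjusted p = 0.016). scl-17, of a family of secreted cysteine-rich proteins and wholly opposite Y51H7C.12, had a log2 difference of 2.75 (limma adjusted p = 0.0444), from 9.52 and 1.77 to 29.6 and 41.8. F54D10.8 (2.29), C42C1.3 (2.17) and F37C12.21 (1.99) also stood under 10 normalised counts in both hpl-2 libraries and at 17.3 to 34.5 in lin-61. These, with F39F10.3, scl-17, C02E7.6 and C02E7.7, entered the comparison only through lin-61.

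The glycolytic gene gpd-1, which encodes glyceraldehyde-3-phosphate dehydrogenase and was chosen after its values were seen, was higher in lin-61 than in hpl-2 and N2. It was at 276.0 and 276.3 in hpl-2, 583 and 569 in lin-61, 338 and 367 in N2, and 442 and 457 in the double mutant. The 2.08-fold difference (log2 1.06, SE 0.12, limma adjusted p = 0.000528) exceeds the gap between replicates in either mutant. gpd-1 has close copies among which reads may have been split. gpd-4, on the same chromosome, had a log2 difference of 0.74 (limma adjusted p = 0.0731), and gpd-2 (0.25) and gpd-3 (-0.13) on X differed less.

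Among oocyte, eggshell and maternal genes the called members, all genes for RNA-binding proteins, were higher in lin-61. Maternal transcripts are loaded into the oocyte and mostly cleared as the embryo develops. Of 26 oocyte, eggshell and maternal genes measured, of 28 listed, 6 were called higher and 0 lower, with a median log2 difference of 0.64; 24 were above 0 and in 21 both lin-61 values lay above both hpl-2 values. Over all genes 1.14% were called higher and 30.4% had both lin-61 values above both hpl-2 values. Over genes of mean level 200 to 1000 the median was 0.14, 68.8% were above 0 and 3.95% were called in either direction. pos-1, a zinc-finger RNA-binding protein of the germ lineage (WBGene00004078, V, 8414086 to 8415254), was at 337 and 322 in hpl-2 and 615 and 639 in lin-61, with N2 at 355 and 434. It was 1.90-fold higher in lin-61 than in hpl-2 (SE 0.13 on the log2 scale, limma adjusted p = 0.0051), and above both N2 libraries. The zinc-finger genes mex-5 (1.75-fold, limma adjusted p = 0.0253) and mex-6 (1.64-fold, 0.0341), the KH-domain gene mex-3 (1.67-fold, 0.0347), the Pumilio-family gene puf-6 (1.74-fold, 0.0353) and the RNA-recognition gene spn-4 (1.58-fold, 0.0392) were also called. mex-5 was at 346 and 330 in hpl-2 and 639 and 549 in lin-61, whereas mex-3, at 277 and 223 in hpl-2 and 407 and 425 in lin-61, was below N2 (350.5 and 469) in hpl-2 (limma adjusted p = 0.00797). Eggshell and oocyte surface genes were not called: egg-1 had a log2 difference of 0.74, egg-3 0.66, cbd-1 0.38 and chs-1 0.25. The summed level of the list was 4832 and 4679 in hpl-2, 7100 and 7053 in lin-61, 4466 and 6469 in N2, and 6527 and 6917 in the double mutant.

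Germ granule and germline genes showed the same direction. P granules are RNA and protein bodies that mark the germ lineage. Of 33 measured, 6 were called higher and 0 lower, with a median of 0.53 and 30 above 0, beside 1.14% called higher over all genes, and 1.36% and 3.95% called in either direction at mean levels of 50 to 200 and 200 to 1000. meg-3, which encodes a disordered protein needed to assemble P granules (WBGene00001569, X, 1986469 to 1989607), was at 101 and 128 in hpl-2, 219 and 222 in lin-61 and 178 and 230.3 in N2 (1.93-fold, limma adjusted p = 0.0244). Its partner gene meg-1 (1.82-fold, limma adjusted p = 0.0475), the nanos homolog nos-2 (1.91-fold, 0.0444), the cytoplasmic poly(A) polymerase gene gld-4 (1.66-fold, 0.0455), the histone H3K27 methyltransferase gene mes-2 (1.64-fold, 0.0244) and the nucleoporin gene npp-10 (1.40-fold, 0.0363) were also called. nos-2 lies wholly opposite him-14, a meiotic mismatch-repair family gene that was also called (0.84, limma adjusted p = 0.0111); it was named after its values were seen, and 28.99% of it lies opposite nos-2. The core P granule genes pgl-3 (1.07, limma adjusted p = 0.0542) and pgl-1 (0.66, 0.0959) were not called, and glh-1 had -0.36 and fbf-2 -0.45. Summed levels were 4869 and 4826 in hpl-2 and 6742 and 6477 in lin-61.

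The calls in both lists moved with the libraries used: 0 in either list were called by limma when any 1 of the 4 libraries was left out or when all 12 were fitted, 2 in each with TMM scaling, and 1 in each when values were rescaled to the coding total. The summed level of the 7 differentiated markers was lower in lin-61, as given above, although unc-119 was at 69.5 and 56.7 in hpl-2 and 70.5 and 79.97 in lin-61. The part of embryo age in these differences was not tested.

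Among 35 meiosis genes 0 were called by limma (median 0.25). In small RNA pathways 2 of 45 were higher and 0 lower (median 0.19), beside 1.14% of all genes called higher. wago-1, a germline Argonaute gene of the secondary small RNA pathway, was at 320 and 329 in hpl-2 and 595 and 603 in lin-61 (1.84-fold, limma adjusted p = 0.0244), with N2 at 366 and 518. alg-2, an Argonaute gene of the microRNA pathway, was at 699 and 742 in hpl-2, 1041 and 969 in lin-61 and 1329 and 1271 in N2 (1.39-fold, limma adjusted p = 0.0432). The nuclear RNAi genes nrde-2 (-0.67, limma adjusted p = 0.0604) and nrde-3 (0.40, 0.0997) had values of opposite sign, neither called.

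Of 6 H3K9 methyltransferase genes and partners, 0 were called by limma, with a median of 0.14. An unadjusted limma p under 0.05 was found for 3 of the 6, and for 2212 of all 13117 genes. The methyltransferase genes met-2, set-25 and set-32 had log2 differences of 0.01, 0.28 and -0.51, and the MET-2 partner genes lin-65 and arle-14 had 0.53 and 0.56 (limma adjusted p = 0.155 and 0.237). Among 11 readers the calls were hpl-2 and lin-61 themselves. hpl-1, the other HP1 homolog, had 0.28 (SE 0.31), the nuclear-periphery anchor gene cec-4 had 0.07 and cec-3 had 0.49 (limma adjusted p = 0.121). Named after their values were seen, the chromodomain genes cec-2 (2.23-fold, limma adjusted p = 0.0276) and cec-7 (1.65-fold, 0.0444) were called higher in lin-61.

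Over all genes 1.14% were called higher in lin-61. At mean levels of 200 to 1000 and of at least 1000, 3.95% and 6.52% were called in either direction. Among 21 synMuv B and DREAM genes, tam-1 was called in addition to hpl-2 and lin-61. It was at 1404 and 1545 in hpl-2, 2099 and 2133 in lin-61, and 2707 and 2286 in N2 (1.44-fold between the mutants, limma adjusted p = 0.0349), with hpl-2 below N2 (limma adjusted p = 0.000645). The DREAM genes lin-35, lin-9, lin-54 and dpl-1 lay between -0.12 and 0.37. All 4 synMuv A genes had values above 0 (0.21 to 0.32) without a call. In the linker histone H1 family 1 of 7 was called: hil-4 (WBGene00001855, V, 4754313 to 4755453) was at 507 and 437 in hpl-2, 693 and 648 in lin-61 and 1011 and 957 in N2. Its log2 difference was 0.51 (SE 0.11, limma adjusted p = 0.0444), and it was below N2 in both mutants (limma adjusted p = 8.61e-05 in hpl-2 and 0.00946 in lin-61). his-24, the major H1 gene, had 0.30 (limma adjusted p = 0.148). The non-coding gene M163.16, wholly opposite his-24 and named after its values were seen, was called higher in lin-61 (0.44, limma adjusted p = 0.0483). In the list of nucleosome remodellers and other histone methylation genes 2 of 30 were higher, beside the shares given above. These were mes-2, already counted among the germline genes, and set-26. set-26, a gene for a PHD and SET domain protein, was at 1184 and 1386 in hpl-2, 2082 and 1812 in lin-61 and 2975 and 2314 in N2 (1.52-fold, limma adjusted p = 0.0411).

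Several groups of cell growth and division genes were noticed among the calls, and these groups were chosen after values were seen. Over all genes 1.14% were called higher, 51.3% lay above 0 and 30.4% had both lin-61 values above both hpl-2 values. At mean levels of 200 to 1000, 3.95% were called in either direction and 68.8% lay above 0. At means of at least 1000 these shares were 6.52% and 74.3%. All 6 genes of the MCM replicative helicase were above 0 and did not overlap between the genotypes, and 4 were called: mcm-2 (0.76, limma adjusted p = 0.0111), mcm-6 (0.69, 0.0244; 29.9% opposite srxa-10), mcm-3 (0.62, 0.0261) and mcm-7 (0.47, 0.0353). mcm-2 was at 351 and 300.2 in hpl-2, 585 and 517 in lin-61 and 827 and 804 in N2. Of 32 proteasome subunit genes 5 were called higher and 0 lower, with a median of 0.48 and 30 above 0, and the calls were rpn-11, pbs-1, pbs-2, rpn-1 and pbs-7 (0.54 to 0.76). Of 9 importin and exportin genes imb-1, imb-3 and xpo-2 were called higher (0.46 to 0.62). Among 26 nuclear pore genes npp-9 and npp-10 were called (median 0.24), and among 31 aminoacyl-tRNA synthetase genes kars-1, qars-1 and rars-1 (median 0.24). In the propionate shunt, a mitochondrial route of propionate breakdown, acdh-1 rose from 66.6 and 87.7 in hpl-2 to 230 and 168 in lin-61 (2.55-fold, limma adjusted p = 0.0439) and hphd-1 from 96.1 and 108 to 265 and 284 (2.68-fold, limma adjusted p = 0.0483). Their double mutant values were 96.4 and 186 for acdh-1 and 66.7 and 102 for hphd-1. The N2 libraries lay far apart for hphd-1, at 128 and 329. Summed over the 5 shunt genes, values were 1224 and 1244 in hpl-2, 2072 and 2058 in lin-61 and 1640 and 2564 in N2.

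**Figure D3:**
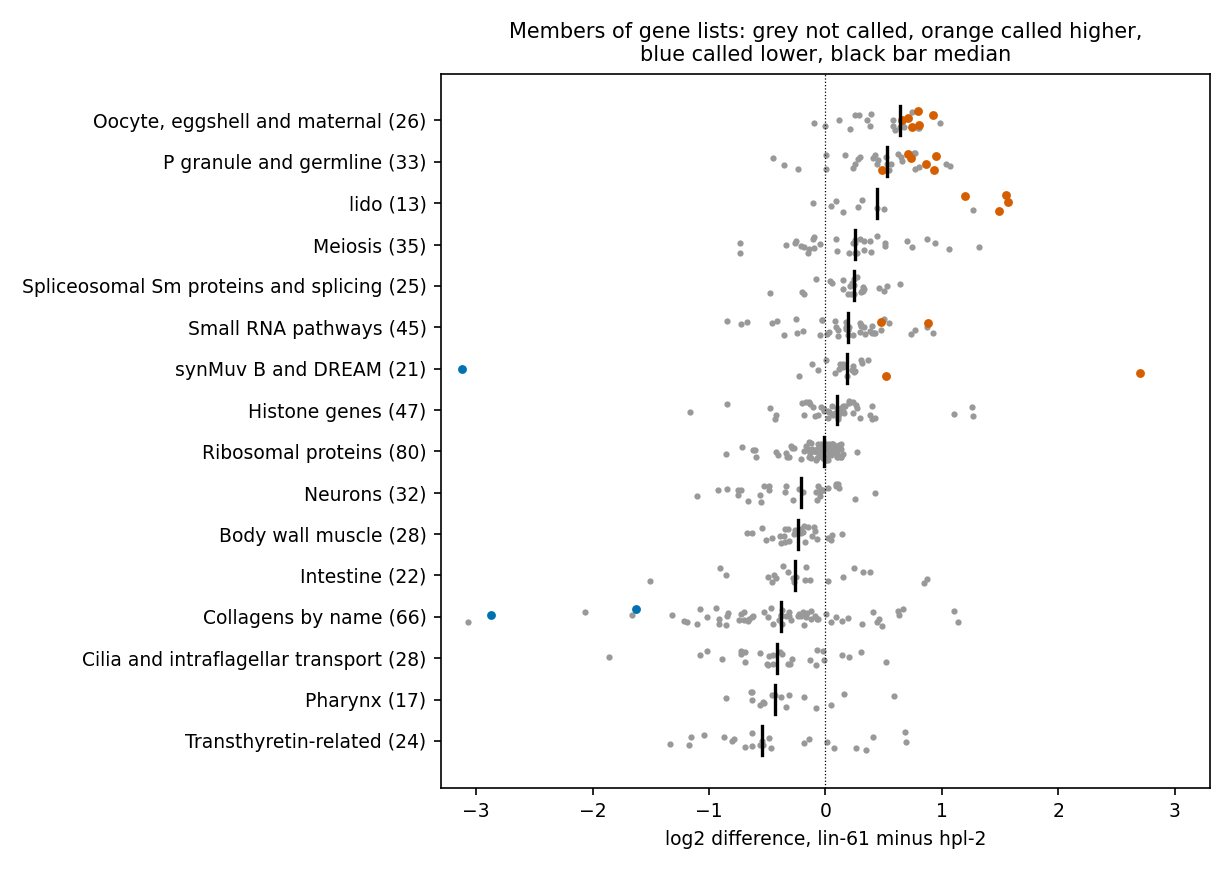
Log2 difference of lin-61 minus hpl-2 for each measured member of 16 gene lists (number of members in brackets), with called genes in orange (higher) or blue (lower), other genes in grey and the list's median as a black bar. The oocyte and P granule lists have medians of 0.64 and 0.53, ribosomal proteins lie around 0, and the pharynx, cilia and transthyretin-related lists have medians of -0.43, -0.42 and -0.54.

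The genes lower in lin-61 were few and mostly of low level. Among them, lin-61, F23H12.5, fipr-1, irld-35, Y32B12C.1 and col-145 entered the comparison only through hpl-2. F23H12.5 (WBGene00009094, V, 12358647 to 12363681) was at 56.1 and 62.9 in hpl-2 and at 0 and 0.909 in lin-61, while N2 (40.5 and 47.5) and the double mutant (39.5 and 45.3) stayed near hpl-2. From 130 reads against 1, its ratio of hpl-2 over lin-61 was 124 with a 95% counting interval of 21.9 to 4936 (limma adjusted p = 7.84e-06). fipr-1, of the family of fungus-induced protein related genes and wholly opposite F23H12.5, had no read in lin-61 and was at least 8.90-fold lower there (28 reads in hpl-2, limma adjusted p = 0.0131). crml-1, a homolog of the actin regulator CARMIL (WBGene00010641, I, 7152462 to 7156786), was at 168 and 184 in hpl-2, 40.8 and 55.4 in lin-61, 182 and 217 in N2 and 21.004 and 39.6 in the double mutant. It was low in both genotypes that carry the lin-61 mutation, and lies 92041 bases from lin-61 (log2 difference -1.87, SE 0.26, limma adjusted p = 0.00461). wago-1, called higher in lin-61, lies between them. The call of crml-1 was lost without hpl-2 replicate 1 (limma adjusted p = 0.0769), without hpl-2 replicate 2 (0.0771) and without lin-61 replicate 1 (0.159).

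irld-35, of a family with insulin and EGF receptor L domains (V, 2456176 to 2458286), had no read in lin-61, N2 or hpl-2 I158A and was at 33.3 and 23.9 in hpl-2 and 17.3 and 3.39 in the double mutant. In lin-61 it was at least 19.7-fold lower (62 reads in hpl-2 against none, limma adjusted p = 0.0253). Its symbol is shared by another annotated gene, so its reads may have been split between copies. Y32B12C.1, wholly opposite WBGene00194769, followed the same order, with 21.9 and 19.5 in hpl-2, 12.4 and 10.18 in the double mutant, and 1.02 and 1.82 in lin-61. Its ratio of hpl-2 over lin-61 was 14.3, from 45 against 3 reads, with a 95% counting interval of 4.59 to 71.99 (limma adjusted p = 0.0444). N2 held 3.12 and 1.22 of Y32B12C.1, hpl-2 I158A had no read of either gene, and met-2 set-25 set-32 had 8.31 and 1.11 of irld-35 and 6.93 and 3.34 of Y32B12C.1.

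Among structural genes, the laminin alpha gene lam-3, of basement membranes (I, 10608466 to 10621435), was at 1037 and 949 in hpl-2, 570 and 631 in lin-61 and 1270 and 1154 in N2 (log2 difference -0.73, SE 0.12, limma adjusted p = 0.0131). lrp-1, a megalin homolog of the epidermis needed for moulting (I, 7614176 to 7634143), was at 1129.6 and 1056.5 in hpl-2, 628 and 687 in lin-61 and 1006 and 1022 in N2 (-0.73, limma adjusted p = 0.0111). For both, the lin-61 values lay below those of hpl-2, N2 and the double mutant, whereas hpl-2 I158A was lower still (367 and 431 for lam-3, 328 and 371 for lrp-1). Of 66 cuticle collagen genes 0 were higher and 2 lower (median -0.38), beside 1.14% and 0.213% of all genes: col-145, from 19.03 and 29.2 in hpl-2 to 2.04 and 2.73 in lin-61 (limma adjusted p = 0.0353), and col-130, from 89.5 and 84.1 to 29.6 and 25.4 (limma adjusted p = 0.0253; wholly opposite ugt-65). mltn-12 had a log2 difference of -2.12 (limma adjusted p = 0.0353) and F22B7.1, wholly opposite dpy-19, had -1.62 (limma adjusted p = 0.0277). Among 33 neuropeptide genes the FMRFamide-like gene flp-3, wholly opposite W07E11.1, was at 71.4 and 75.3 in hpl-2 and 33.7 and 31.8 in lin-61 (-1.14, limma adjusted p = 0.0353).

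Most lists of differentiated tissues had medians below 0, while 29 cuticle, precuticle and epidermis genes had a median of -0.03 with 14 above 0. By limma 0 genes were called among 28 body wall muscle genes (median -0.23, 24 below 0), 17 pharynx genes (-0.43, 14 below 0), 22 intestine genes (-0.26), 32 neuron genes (-0.21, 25 below 0), 28 cilia genes (-0.42, 24 below 0) and 24 transthyretin-related genes (-0.54). Both lin-61 values lay below both hpl-2 values for 21 body wall muscle genes, 13 pharynx genes and 14 cilia genes, as for 27.3% of all genes. The integrin gene pat-2 (-0.68, limma adjusted p = 0.0542), the intraflagellar transport gene ift-74 (-1.86, 0.0591) and the intestinal saposin-like gene spp-5 (-1.50, 0.0544) had the lowest adjusted p in these lists. Summed body wall muscle values were 16560 and 16446 in hpl-2, 14284 and 13772 in lin-61, and 12997 and 18194 in N2. The N2 libraries thus lay below and above all of the hpl-2 and lin-61 libraries. This was also so for summed pharynx, intestine and neuron genes, but not for cilia or transthyretin-related genes. Ribosomal protein genes (80, median -0.02), dosage compensation genes (12, median 0.02) and homeobox ceh genes (43, median 0.01) were centred near 0 without a call. Histone genes (47, median 0.10), splicing genes (25, median 0.24) and F-box genes (105, median 0.29) had 0 calls by limma too.

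Non-coding genes and pseudogenes made up 27 of the 149 genes called higher and 5 of the 28 called lower. All 13117 genes compared included 2361 non-coding RNA genes and 266 pseudogenes. Of the 27 and 5 called, 19 and 3 lay wholly opposite another gene. F31C3.14, 98.7% opposite the ribosomal RNA gene rrn-3.1, was at 880.3 and 179 in hpl-2 and 3305 and 3505 in lin-61 (8.55-fold, limma adjusted p = 0.0209). The higher of its hpl-2 values is in replicate 1, the library with the higher share of ribosomal RNA; the part of that share in the result was not tested. The pseudogene WBGene00020440 was at 16.18 and 15.1 in hpl-2, 17.1 and 21.9 in N2 and 64.3 and 78.2 in lin-61, highest in lin-61 among these genotypes (2.11, limma adjusted p = 0.0109). The piRNA locus 21ur-12557, wholly opposite F40D4.13, was at 47.6 and 70.8 in hpl-2, 267 and 205 in lin-61, 402 and 221 in the double mutant and 14.02 and 12.2 in N2 (1.99, limma adjusted p = 0.00842). F40D4.13 itself was called with 1.88 (limma adjusted p = 0.0302). Among abundant genes, anr-7 (wholly opposite dvc-1) was 1.93-fold, F43D9.8 (83.7% opposite sip-1) 1.72-fold, F40G9.20 2.26-fold and the chemoreceptor-family gene srxa-10 (wholly opposite mcm-6) 1.67-fold higher in lin-61, with limma adjusted p = 0.00297, 0.00368, 0.013 and 0.0102. In the other direction, the antisense RNA K10H10.15, wholly opposite K10H10.4, was at 126 and 106 in hpl-2 and 13.3 and 10.9 in lin-61 (-3.16, limma adjusted p = 0.00366). The piRNA locus 21ur-14242, opposite the dynein gene che-3, had -1.90 (limma adjusted p = 0.0401), and F16A11.5, opposite ppfr-1, had -0.96 (limma adjusted p = 0.0432). An overlap above 10% with a gene on the other strand was found for 33 genes called higher and 8 called lower, and for 23.4% of all genes.

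The other genotypes show on which side each difference fell. For the 149 genes higher in lin-61, the N2 level was nearer lin-61 for 109 (73.2%), the double mutant for 127 (85.2%) and hpl-2 I158A for 131 (87.9%), against 59.3%, 60.1% and 65.7% of all genes. hpl-2 I158A lay above both single mutants for 110 of them, with a median log2 value 0.29 above lin-61. Among all 13117 genes it lay above both for 5106, with a median of -0.03 relative to lin-61. For the 28 genes lower in lin-61, the double mutant was nearer lin-61 for 6 (21.4%), N2 for 10 (35.7%) and hpl-2 I158A for 20 (71.4%), the last near its share of all genes. So genes called in either direction had a double mutant level nearer the higher single mutant in 127 and 22 cases. In their own comparisons with N2, 917 genes (6.99%) were called for lin-61 and 2176 (16.6%) for hpl-2. These share the N2 libraries with each other and a mutant with the present comparison.

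**Figure D4:**
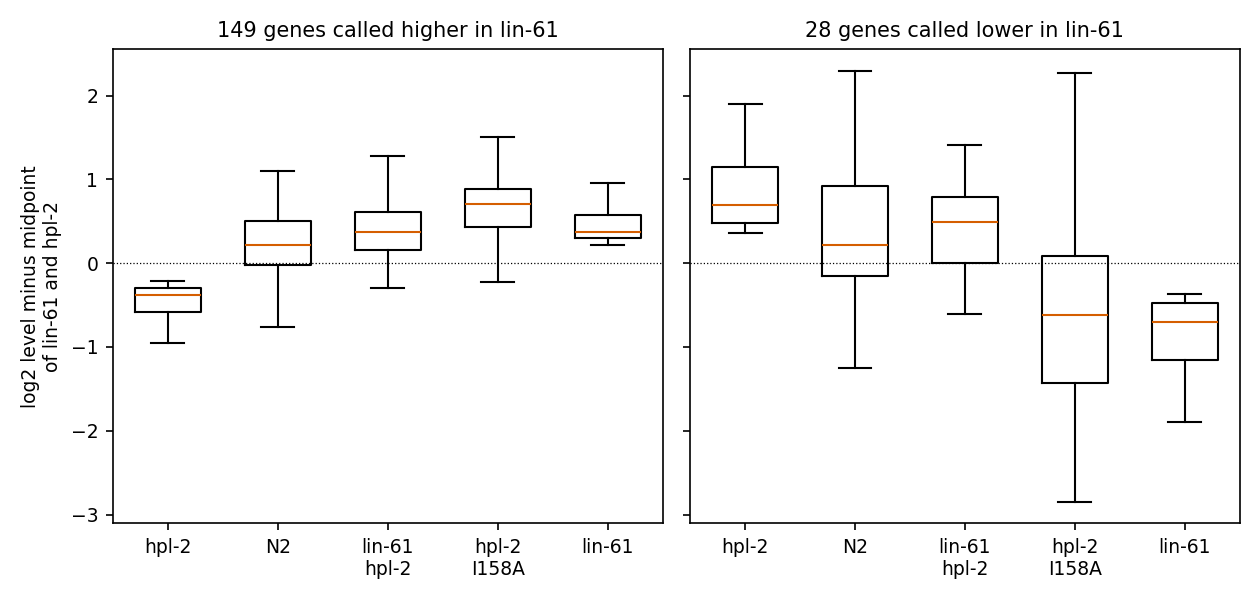
Log2 level of each genotype, as the mean of 2 libraries, minus the midpoint of lin-61 and hpl-2, for the 149 genes called higher (left) and the 28 called lower (right) in lin-61. Boxes span the quartiles with the median as a line, and whiskers reach the farthest gene within 1.5 box lengths; lin-61 and hpl-2 are apart because they chose the genes, and the double mutant lies on the higher side in both panels.

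More genes had at least 1 read in hpl-2. At a common depth of 2129879 reads, the expected number was 24103 and 24248 in the hpl-2 libraries and 22749 and 23109 in the lin-61 libraries, with 21118 and 21328 in hpl-2 I158A. The median log2 difference went with the level. Of the 3009 genes with a mean under 20, 39.7% lay above 0 (median -0.17), and of the 276 genes with a mean of at least 1000, 74.3% did (median 0.12). The share called was 0.233% in the first group and 6.52% in the second, where the SE was smaller (median 0.11 against 0.55). Of all genes compared, 420 reached the entry level only in hpl-2 and 198 only in lin-61. The part of this entry rule in the values at low levels was not tested.

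Genes on autosome arms were higher in lin-61 relative to genes in the middle of the same chromosomes. Each chromosome was divided by length into 3 equal parts, the outer parts being called arms. On autosome arms 111 of 6339 genes were called higher (1.75%) and 8 lower, with a median log2 difference of 0.11. In the middle parts 33 of 4708 were higher (0.701%) and 17 lower, with a median of -0.04, and on X 5 of 2039 were higher and 3 lower, with a median of -0.15. The arm median exceeded the middle median on each of the 5 autosomes in each of the 4 pairings of a lin-61 with an hpl-2 library. It was widest on chromosome V (0.11 against -0.09) and narrowest on III (0.11 against 0.04). The order held at mean levels under 50 (0.01 against -0.21), of 50 to 200 (0.13 against 0.02) and of 200 and over (0.21 against 0.11), and among coding genes (0.13 against -0.01). By library, the median log2 value on arms minus that in the middle, each relative to the mean of the libraries, was -0.16 and -0.18 in hpl-2, -0.01 and -0.02 in lin-61, 0.04 and 0.04 in N2, 0.02 and 0.01 in the double mutant and 0.15 and 0.14 in hpl-2 I158A. The lin-61 libraries thus lay near N2 and the double mutant, and the hpl-2 libraries below all others.

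**Figure D5:**
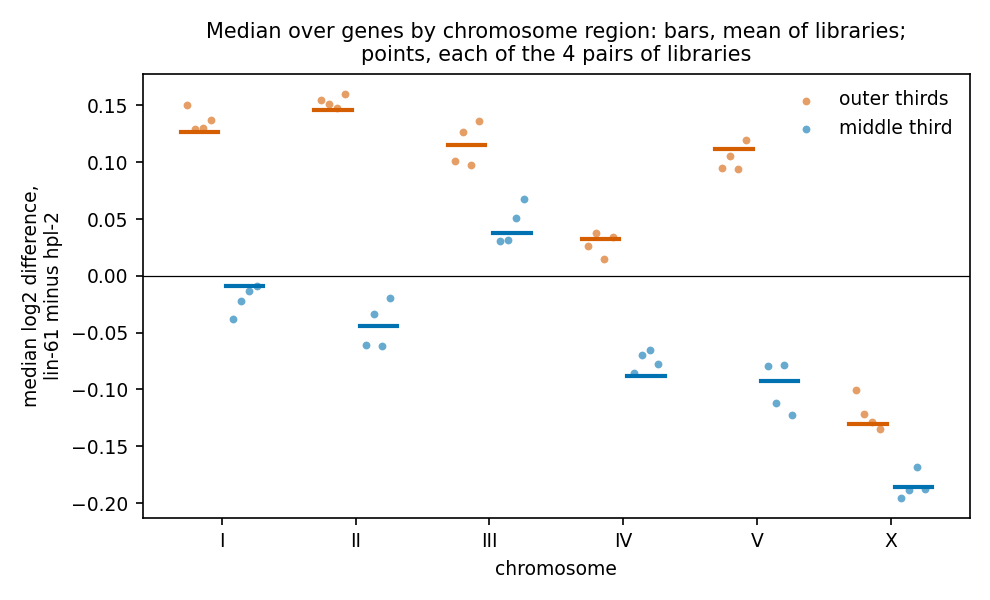
Median log2 difference of lin-61 minus hpl-2 over the genes of each chromosome, for the outer parts (orange) and the middle part (blue), with a bar for the mean of libraries and a point for each of the 4 pairs of libraries. Outer parts lie above the middle on every chromosome, and X lies below 0 in both.

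The authors' deposited table lists the same pair of genotypes, coded as hpl2 over lin61 and given here as lin61 over hpl2. Of 8110 genes with an adjusted p in the authors' deposited table, 19 (0.234%) were under 0.05, 15 higher and 4 lower in lin-61, and all 19 were among the 177 called by limma. In the authors' deposited table the log2 fold change was 11.1 for C02E7.6, 6.20 for C02E7.7, 2.66 for E01G4.5, 1.55 for lido-8, 1.06 for gpd-1, -6.95 for F23H12.5 and -1.87 for crml-1. No adjusted p was given there for irld-35, fipr-1, col-145, scl-17 and other genes of low level.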

How the data were processed

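Messenger RNA of late-stage embryos was selected with oligo(dT) and made into strand-marked libraries, per the labels' protocols. STAR, featureCounts, DESeq2 and the builds WBcel235 and ce11 are named in the submitters' processing notes; no source used here states the annotation or the strand setting. The authors deposited a signal, read counts divided by 1 size factor per library; 100% of values above 0 were whole reads within 1e-06. A second deposited table gives the authors' p-value, adjusted p-value and log2 fold change.

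limma-trend (limma 3.58.1, R 4.3.3) was run on log2(normalised count + 1) with both libraries of 5 genotypes (10 libraries; met-2 set-25 set-32 left out, since 1 of its libraries stood apart) and genotype as the only term. Residual degrees of freedom were 5, and p-values were adjusted (Benjamini-Hochberg) over 13117 genes, with calls at 0.05. Differences are on the log2(value + 1) scale, which understates low genes. edgeR 4.0.16 and DESeq2 1.42.0 on recovered reads were alternatives. Positions and names follow Ensembl 115 of WBcel235, counted from 1 (46817 identifiers matched, 87 not). The limma fit was tested on simulated data.

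Genes named were hpl-2 and lin-61, the 10 coding genes of largest called difference each way, the 6 largest among genes with a mean of at least 500, the 3 largest non-coding genes or pseudogenes, and up to 4 called members of each of 47 lists each way. Called genes and groups named beyond this rule, puf-6, spn-4, meg-1 and gld-4 among them, were chosen after values were seen. Members, lists and tests were chosen with earlier results of these data known. Intervals and floors cover counting error only. Lists with 0 calls by limma that the report does not describe were, with their medians, early zygotic regulators (0.26), heat shock (0.17), DNA damage (0.17), pathogen response (0.19), vitellogenins (0.52), sperm (0.36), MATH and BTB (0.02), nuclear hormone receptors (-0.04), P450 (0.23), glucuronosyltransferases (-0.16), glutathione transferases (-0.14), hedgehog-related (-0.19), cuticlins (-0.18), T-box (0.31), nas (-0.20), guanylate cyclases (-0.13), lysozymes (-0.12), DEG/ENaC (-0.29) and ligand-gated channels (-0.22). C-type lectins (-0.05) had clec-91 higher and chemoreceptors (-0.12) srxa-10 higher.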

Additional observations from a re-analysis of the deposited data

How the results depend on the processing

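All 177 differences kept their sign wherever they were tested. Changing the libraries in the fit could not have turned a sign, since no values overlapped between the genotypes. Counts of genes called were 114 with TMM scaling (85 higher), 70 rescaled to the coding total (43 higher, 27 lower), 228 with edgeR (155 higher, 73 lower), 195 with DESeq2, 290 with robust variances (248 higher), 231 with a pseudocount of 5 (44 lower), 278 at a mean of at least 50 (245 higher), 33 without a filter (26 higher, 7 lower), 6 with all 12 libraries (5 higher, 1 lower) and 2202 with only the 4 compared (1356 higher, 846 lower). Leaving out 1 library gave 9 to 21 in all, 7 to 11 higher and 1 to 10 lower; the group left with 1 library is then assumed to vary like the others. The arm minus middle difference of 0.15 was 0.138 and 0.110 at means of at least 10 and 50, 0.135 with a pseudocount of 5, 0.133 without genes at the level in 1 genotype only (an alternative chosen after seeing the data), and 0.138 to 0.158 with 1 library left out. Same-numbered libraries did not deviate together across all genes (correlations of -0.03 to 0.07 over 10 pairs). Such a correlation cannot show whether they shared a preparation that moved some genes. With a replicate block 148 were called (127 higher, 21 lower). The causes of these shifts were not tested. At about 1 read per normalised count, levels near 10 are measured with little precision.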
